A study of Mus musculus with 16 samples.

Results

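Matrix metalloproteinases (MMPs) and their tissue inhibitors (TIMPs) were measured as transcripts in the 2 tissues of the mouse intervertebral disc. The set held 10 named genes, chosen by symbol, of 19505 genes with a single symbol on the array. The 6 enzymes were Mmp2, Mmp3, Mmp11, Mmp14, Mmp16 and Mmp23, and the 4 inhibitors were Timp1, Timp2, Timp3 and Timp4. Each gene had 1 probe set.

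The discs came from 8 female mice between 3 and 4 months old. Control animals (CTR) carried 2 floxed Sox9 alleles (Sox9fl/fl) with no Cre named, and conditional knock-out animals (cKO) carried the same alleles with Acan-CreERT2, a tamoxifen-inducible Cre driven from the aggrecan gene. Tamoxifen was given to the cKO animals on 2 days, the labels name no injection of the CTR animals, and discs were collected on day 5 counted from the first dose. The nucleus pulposus (NP), the gel-like core of the disc, and the annulus fibrosus (AF), the fibrous ring around it, were dissected apart. Lumbar and tail discs of an animal were pooled, and each tissue of each genotype was hybridised to 4 arrays. The Cre acts in cells that express aggrecan, so genotype means recombination in those cells and not in every cell of a sample. Loss of Sox9, presence of Cre and tamoxifen cannot be told apart in this design.

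MMPs are zinc endopeptidases that cleave collagens, proteoglycans and other matrix proteins, and most are made as inactive proenzymes. TIMPs block the active site of MMPs, and TIMP3 also blocks several ADAM and ADAMTS proteases. In discs the balance between these enzymes and inhibitors is studied as a regulator of matrix turnover, and Sox9 is the transcription factor that drives cartilage matrix genes such as Acan and Col2a1.

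The NP carried less signal than the AF for most of this family, and one inhibitor ran the other way. In CTR discs 8 of the 10 genes were lower in NP and 1, Timp3, was higher, at an adjusted p under 0.05 (limma, Benjamini-Hochberg over 22206 probe sets). Over all probe sets 20.1% were called in this comparison, 10.1% as lower in NP and 9.96% as higher. In cKO discs the same count was found, again 8 lower and 1 higher, where 25.9% of all probe sets were called, 12.6% as lower and 13.3% as higher. The tissues did not overlap for 8 of the 10 genes in CTR and 8 in cKO, against 22.6% and 26.8% of all probe sets. The 9 genes called were the same in both genotypes, and Mmp11 was the one not called. For 0 of the 10 genes did Sox9 genotype make a called difference in NP or in AF. Over all probe sets only 0.122% in NP and 0.0991% in AF were called between genotypes. Because each sample is whole tissue, fewer cells of a type and less RNA per cell cannot be told apart.

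**Figure D1:**
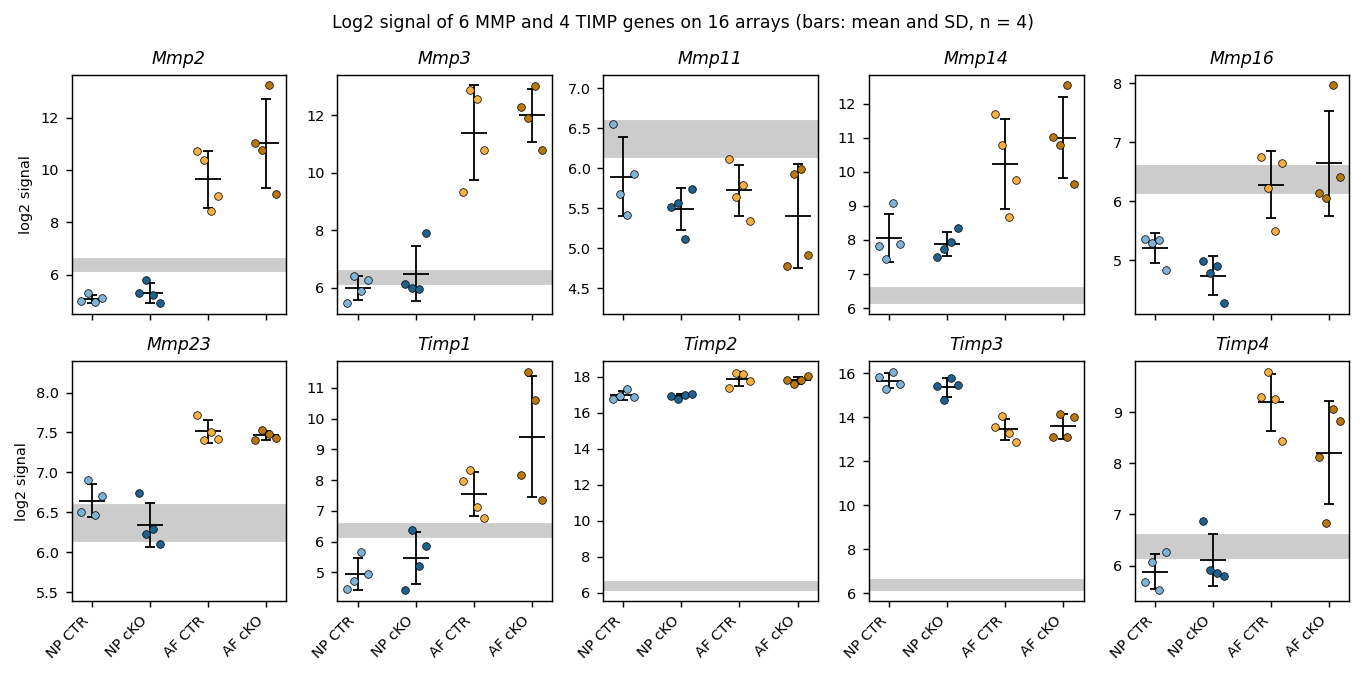
Log2 signal of the 6 MMP and 4 TIMP genes on each of 16 arrays, one panel per gene and one point per array, with bars for the mean and SD of the 4 arrays of a group. Mmp2, Mmp3, Mmp16, Mmp23, Timp1 and Timp2 were higher on every AF array than on every NP array of the same genotype, Timp3 was lower, and no gene separated cKO from CTR within a tissue.

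Signals are log2 values after the authors' array normalization, and the median signal of negative control probe sets lay between 6.14 and 6.59 on the 16 arrays. A value below its own array's median of these controls is called not above background here. For the 10 genes together, 15 of 40 values in NP CTR and 15 of 40 in NP cKO were above background, against 34 of 40 in AF CTR and 33 of 40 in AF cKO. Where a gene was below background on any array of a group, the fold is given as a lower bound, computed with such values raised to the array's negative control median. The words "at least" refer to this bound on the group means. It allows for background only and not for the spread between arrays. No fold is given where this bound is close to 1. The level of one gene's probe set is not compared with another's.

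Promoters are shown for 3 genes: an enzyme that was far lower in NP, the inhibitor that ran opposite to the rest, and the inhibitor with letters of a SOX motif. Each is the 250 bases before the RefSeq start on GRCm38.p6, written 5′ to 3′ on the gene's strand. Capitals mark TGAGTCA (an AP-1 motif, searched as TGANTCA) and TATAAA in Mmp3, CCGCCC (a GC box, searched as GGGCGG on both strands) in Timp3 and Timp1, and the SOX letters ACAAAG and ATTGTT (searched as ACAAAG and AACAAT on both strands) in Timp1.
Mmp3, chr9:7445572-7445821, + strand: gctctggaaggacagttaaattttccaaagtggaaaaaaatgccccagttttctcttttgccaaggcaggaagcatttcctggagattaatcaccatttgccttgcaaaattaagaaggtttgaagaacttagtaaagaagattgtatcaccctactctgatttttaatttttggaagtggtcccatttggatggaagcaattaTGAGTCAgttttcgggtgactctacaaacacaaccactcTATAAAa
Timp3, chr10:86300162-86300411, + strand: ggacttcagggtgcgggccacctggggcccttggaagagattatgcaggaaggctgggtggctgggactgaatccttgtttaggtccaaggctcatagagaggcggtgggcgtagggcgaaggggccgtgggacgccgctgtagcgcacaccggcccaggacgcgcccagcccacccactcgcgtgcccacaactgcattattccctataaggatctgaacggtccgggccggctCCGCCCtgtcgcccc
Timp1, chrX:20869916-20870165, + strand: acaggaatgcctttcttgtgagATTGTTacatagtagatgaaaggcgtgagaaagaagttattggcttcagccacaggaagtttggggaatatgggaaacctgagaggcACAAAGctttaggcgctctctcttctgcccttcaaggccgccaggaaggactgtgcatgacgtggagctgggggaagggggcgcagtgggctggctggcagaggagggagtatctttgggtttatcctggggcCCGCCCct

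The Mmp3 window held the AP-1 letters 46 bases and the letters TATAAA 7 bases upstream of the start. Its GC content was 37.6%, lower than all but 7.9% of 32851 promoters of the same length. The AP-1 letters occurred in 6.7% and TATAAA on the gene strand in 7.6% of them. Timp3 had a GC content of 65.6% with a GC box 15 bases upstream, a motif found in 32.7% of promoters. Timp1 had ACAAAG 141 bases and ATTGTT 228 bases upstream, letters that occur in 16.5% and 9.4% of promoters. A match describes letters only. Promoters of 8 of the 10 genes were matched, with 9 windows in all, and none was matched for Mmp2 or Mmp16.

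Mmp2 encodes gelatinase A, which degrades denatured collagen and type IV collagen. Its signal in AF CTR was 10.73, 10.39, 8.44 and 8.99 on replicates 1 to 4, and in NP CTR 4.98, 5.28, 4.95 and 5.12. In cKO discs it was 11.02, 10.75, 13.23 and 9.09 in AF and 5.31, 5.81, 5.2 and 4.90 in NP. Every AF array lay above every NP array, and all 8 NP values were below background. The NP minus AF difference was -4.55 (SE 0.60) in CTR (limma adjusted p = 3.24e-05), at least 8.62-fold lower in NP, and -5.72 (SE 0.60) in cKO (adjusted p = 3.15e-06), at least 23.2-fold lower. The high value of AF cKO replicate 3 moved the cKO difference, which was -4.98 without it and -6.36 without AF cKO replicate 4.

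Mmp3, or stromelysin-1, cleaves proteoglycans and activates other proMMPs. Its AF CTR signals were 9.33, 12.86, 12.57 and 10.78 and its AF cKO signals 12.27, 11.90, 13.02 and 10.78. NP signals were 5.45, 6.40, 5.87 and 6.25 in CTR and 6.12, 5.97, 5.95 and 7.91 in cKO. All AF arrays exceeded all NP arrays, and NP cKO replicate 4 was the one NP value above background. The NP minus AF difference was -5.39 (SE 0.63) in CTR (adjusted p = 7.88e-06), at least 29.0-fold lower in NP. In cKO it was -5.50 (SE 0.63; adjusted p = 8.12e-06), at least 36.0-fold lower in NP, where 1 of 4 arrays was above background. Without AF CTR replicate 1, the lowest AF array for this gene, the CTR difference was -6.08.

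Mmp14, or MT1-MMP, is anchored in the membrane, cleaves fibrillar collagen and activates proMMP2 in a complex with TIMP2. Its AF CTR signals were 11.70, 10.79, 8.66 and 9.76 and its AF cKO signals 11.01, 10.79, 12.53 and 9.64. Its NP signals were 7.83, 7.44, 9.08 and 7.88 in CTR and 7.51, 7.73, 7.94 and 8.35 in cKO. It was above background on all 16 arrays. The CTR tissues overlapped, since NP CTR replicate 3 exceeded AF CTR replicate 3, while the cKO tissues did not. The NP minus AF difference was -2.17 (SE 0.57; adjusted p = 0.0112), or 4.49-fold, in CTR and -3.11 (SE 0.57; adjusted p = 0.000745), or 8.64-fold, in cKO.

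Mmp16 encodes MT3-MMP, another membrane-anchored enzyme, and Mmp23 a small MMP that lacks the usual propeptide switch and hemopexin domain. Mmp16 was 6.75, 6.22, 5.50 and 6.65 in AF CTR and 5.36, 5.30, 5.35 and 4.83 in NP CTR. In cKO it was 6.14, 6.06, 7.96 and 6.41 in AF and 4.99, 4.79, 4.91 and 4.27 in NP. It was above background on 2 AF CTR arrays and 1 AF cKO array and on no NP array, so the bound is close to 1 and no fold is given. Its NP minus AF difference was -1.07 (SE 0.35; adjusted p = 0.0392) in CTR and -1.90 (SE 0.35; adjusted p = 0.000848) in cKO. The CTR call was lost when any of NP CTR replicates 1 to 4 or AF CTR replicate 1, 2 or 4 was left out (adjusted p from 0.0542 to 0.113), with median centring (0.0621) and with array weights (0.0673).

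Mmp23 was the enzyme whose AF arrays varied least. The AF signals were 7.72, 7.41, 7.50 and 7.42 in CTR and 7.41, 7.53, 7.48 and 7.43 in cKO, and the NP signals were 6.51, 6.91, 6.47 and 6.70 in CTR and 6.74, 6.23, 6.29 and 6.10 in cKO. The tissues did not overlap. NP minus AF was -0.86 (SE 0.18; adjusted p = 0.00218), at least 1.80-fold lower, in CTR and -1.12 (SE 0.18; adjusted p = 0.000251), at least 1.90-fold lower, in cKO. In NP it was above background on 3 CTR arrays and 1 cKO array. Mmp23 partly overlaps Mib2 in the annotation.

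Mmp11, or stromelysin-3, was not above background on any of the 16 arrays. Its signals lay between 4.78 and 6.56, and its NP minus AF difference was 0.17 (95% interval -0.45 to 0.80) in CTR and 0.08 (-0.54 to 0.71) in cKO. Neither passed the test, and values below background carry no order.

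Among the inhibitors, Timp3, which binds to the matrix, was the one called higher in NP. Its NP signals were 15.82, 15.26, 16.04 and 15.51 in CTR and 15.43, 14.76, 15.76 and 15.47 in cKO. The AF signals were 13.57, 14.03, 13.29 and 12.86 in CTR and 13.10, 14.14, 13.08 and 13.99 in cKO. Every NP array exceeded every AF array. In CTR NP exceeded AF by 2.22 (SE 0.30; adjusted p = 4.05e-05), or 4.67-fold, and in cKO by 1.77 (SE 0.30; adjusted p = 0.000395), or 3.42-fold.

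Timp2, the TIMP that also takes part in proMMP2 activation, was lower in NP by a small and regular amount. AF signals were 17.39, 18.20, 18.17 and 17.77 in CTR and 17.81, 17.58, 17.85 and 18.03 in cKO. NP signals were 16.75, 16.92, 17.31 and 16.90 in CTR and 16.94, 16.80, 17.00 and 17.07 in cKO. The tissues did not overlap in either genotype. The difference was -0.92 (SE 0.20; adjusted p = 0.00348), or 1.89-fold, in CTR and -0.86 (SE 0.20; adjusted p = 0.00491), or 1.82-fold, in cKO. These signals lie near the top of the array's range, which reached 19.93, and saturation was not tested.

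Timp1, an inducible inhibitor of most MMPs, was 7.97, 8.34, 7.14 and 6.77 in AF CTR and 8.18, 11.51, 10.62 and 7.36 in AF cKO. NP signals were 4.46, 4.72, 5.67 and 4.94 in CTR and 4.44, 6.37, 5.21 and 5.87 in cKO, all below background. AF exceeded NP on every array. Between tissues the difference was -2.61 (SE 0.67; adjusted p = 0.0101), at least 2.04-fold lower in NP, in CTR and -3.95 (SE 0.67; adjusted p = 0.000425), at least 7.63-fold lower, in cKO. Without AF cKO replicate 2 the cKO difference was -3.25, and without AF cKO replicate 4 it was -4.63.

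Timp4, the fourth family member, was 9.29, 9.78, 9.25 and 8.43 in AF CTR and 8.12, 6.83, 9.06 and 8.82 in AF cKO. Its NP signals were 5.67, 6.07, 5.52 and 6.26 in CTR and 6.87, 5.91, 5.85 and 5.80 in cKO. The CTR tissues did not overlap, whereas NP cKO replicate 1 exceeded AF cKO replicate 2. The tissue difference was -3.31 (SE 0.40; adjusted p = 1.06e-05), at least 6.31-fold lower in NP, in CTR. In cKO it was -2.10 (SE 0.40; adjusted p = 0.000966), at least 3.12-fold lower in NP, where 1 of 4 arrays was above background. Timp1, Timp3 and Timp4 each lie inside a synapsin gene (Syn1, Syn3 and Syn2), Timp2 holds Cep295nl, and the labels do not say whether the probe sets are specific to a strand. The synapsin signals lay between 3.71 and 6.88.

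The order of group means was AF above NP for every called gene but Timp3, with cKO above CTR in AF for Mmp2, Mmp3, Mmp14, Mmp16 and Timp1 and below it for Mmp23, Timp2 and Timp4. Neighbours that differed by genotype alone did not pass the test for any of the 10 genes.

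**Figure D2:**
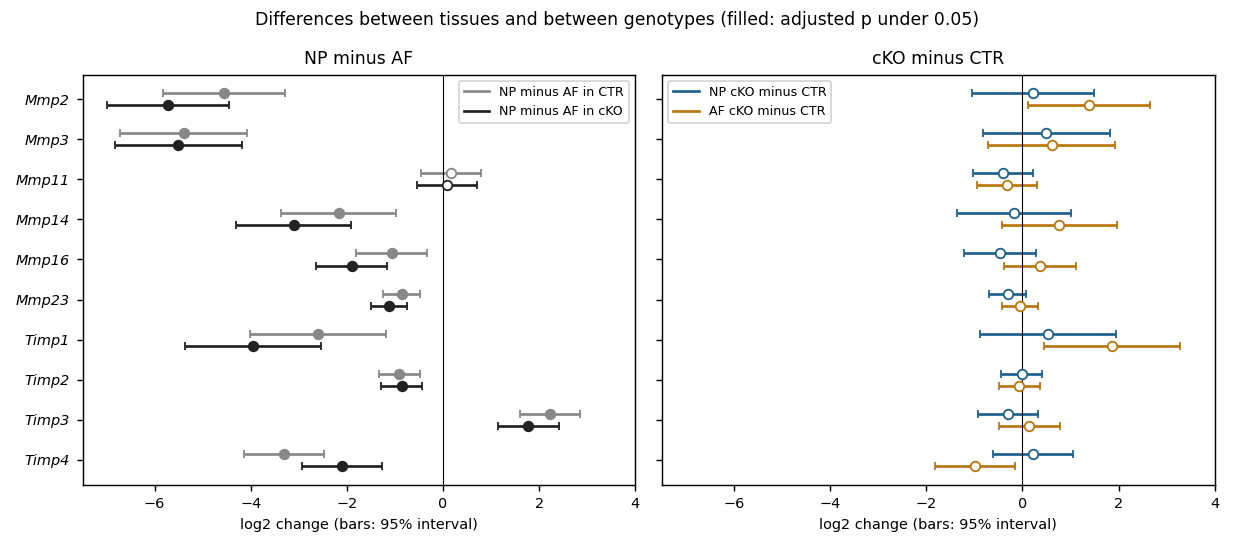
Log2 differences of the 10 genes with 95% intervals, NP minus AF in each genotype on one side and cKO minus CTR in each tissue on the other, with filled points where the limma adjusted p was under 0.05. In the tissue comparison 9 points are filled in each genotype, and in the genotype comparison none is filled.

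The effect of Sox9 deletion was read after a check of the target. Sox9 signal was 17.25, 17.45, 16.59 and 16.39 in AF CTR and 12.10, 11.43, 12.99 and 12.44 in AF cKO, a change of -4.68 (SE 0.30). NP values were 16.19, 16.14, 16.79 and 15.95 in CTR and 9.69, 9.55, 10.12 and 9.65 in cKO, a change of -6.51 (SE 0.30). The groups did not overlap in either tissue.

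In NP, where 0.122% of all probe sets were called between genotypes, 0 of 10 genes were called and 0 had an unadjusted p under 0.05 (limma), against 4.58% of all probe sets. The changes, cKO minus CTR, ran from -0.47 for Mmp16 (95% interval -1.21 to 0.27) to 0.52 for Timp1 (-0.89 to 1.94). For Timp2 the change was -0.01 with an interval of -0.44 to 0.41. For Timp3 it was -0.30 (-0.93 to 0.33) and for Mmp14 -0.18 (-1.37 to 1.02). Mmp2, Mmp11, Mmp16 and Timp1 were below background on all 8 NP arrays, so their values and intervals there bound no change. Mmp3 and Timp4 were below it on 7 of 8 NP arrays and Mmp23 on 4 of 8. The NP changes of Mmp3, Timp4 and Mmp23 thus also rest in part on background signals. For 0 of the 10 genes were the genotypes apart without overlap, against 2.93% of all probe sets.

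In AF, where 0.0991% of probe sets were called, 0 of 10 genes were called by limma after adjustment, and 3 had an unadjusted p under 0.05, against 10.6% of all probe sets. These were Timp1, Mmp2 and Timp4, and each also passed the unadjusted p of 0.05 with a 1.75-fold change that the labels name, as did 3.49% of all probe sets. Timp1 differed by 1.86 (95% interval 0.45 to 3.28; adjusted p = 0.340), and the difference was carried by AF cKO replicates 2 and 3 while replicates 1 and 4 lay within the CTR range. Mmp2 differed by 1.39 (0.12 to 2.65; adjusted p = 0.437), with AF cKO replicate 3 the highest and replicate 4 within the CTR range. Timp4 differed by -0.98 (-1.81 to -0.15; adjusted p = 0.402), with AF cKO replicate 2 the lowest. In all 3 genes the cKO and CTR arrays overlapped, and 4.33% of all probe sets did not overlap.

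Single arrays moved these values. Without AF cKO replicate 3 the Mmp2 difference was 0.65, and without AF cKO replicate 4 it was 2.03. Without AF cKO replicate 2 the Timp1 difference was 1.17, and the Timp4 difference was -0.52. No adjusted p for these 3 genes was under 0.05 when any 1 array was left out. The lowest, 0.0721, was that of Timp1 without AF cKO replicate 4, where its difference was 2.55.

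The other 7 genes had AF differences between -0.32 (Mmp11) and 0.77 (Mmp14, 95% interval -0.43 to 1.96). The intervals for Mmp23 (-0.43 to 0.33) and Timp2 (-0.49 to 0.36) were the narrowest. Whether the genotype effect differed between tissues was tested as NP change minus AF change: 0 of 10 genes and 0% of probe sets were called by limma, and 1 gene, Timp4, had an unadjusted p under 0.05 (1.21, adjusted p = 0.732). That value also passed the labels' thresholds, as did 4.4% of all probe sets, and 6.74% had an unadjusted p under 0.05. These comparisons share no arrays between NP and AF, although they share animals.

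Marker genes of other cell types varied between the AF arrays on which these values rest. Means of neutrophil markers were 11.31, 7.92, 6.54 and 7.27 in AF CTR and 11.73, 11.53, 12.83 and 9.38 in AF cKO, and all 12 measured markers had a positive cKO minus CTR difference with 0 called. Skeletal muscle markers reached 10.41 in AF cKO replicate 2 and 9.83 in replicate 4, against at most 7.47 on the other AF arrays, and osteoclast markers reached 8.91 in AF CTR replicate 1 and 10.06 in AF cKO replicate 3. Cartilage markers were lower in AF cKO, from 10.97 to 11.84 against 11.87 to 14.18. Of these 3 of 15 were called lower, beside 0.0991% of all probe sets called in either direction. Cell type lists with mostly positive AF differences and 0 called were also skeletal muscle (16 of 16, median 1.67), erythroid (5 of 5, 1.46), endothelial (9 of 9, 0.56) and macrophage and monocyte (10 of 11, 0.60). Osteoclast (7 of 8, 0.23) and AF and tendon (9 of 12, 0.25) were further ones. Of hypertrophic cartilage and osteoblast and of pericyte and smooth muscle markers 6 of 10 each were positive, and of adipocyte markers 1 of 7. Means of hypertrophic cartilage and osteoblast markers were 12.17, 10.86, 8.71 and 9.72 in AF CTR and 10.95, 10.03, 12.14 and 9.13 in AF cKO, the same order of arrays within each genotype as Mmp2. This order was not particular to that list. The osteoclast, neutrophil, cartilage and macrophage and monocyte means had it too, and so did Mmp14. The part of these cell types in the AF differences of Timp1, Mmp2 and Timp4 was not tested. With AF CTR replicate 1 and AF cKO replicate 3 left out, a choice made after seeing the data, the Timp1 difference was 1.60 and the Mmp2 difference 1.02, and with AF cKO replicates 2 and 4 left out they were 1.85 and 2.49.

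**Figure D3:**
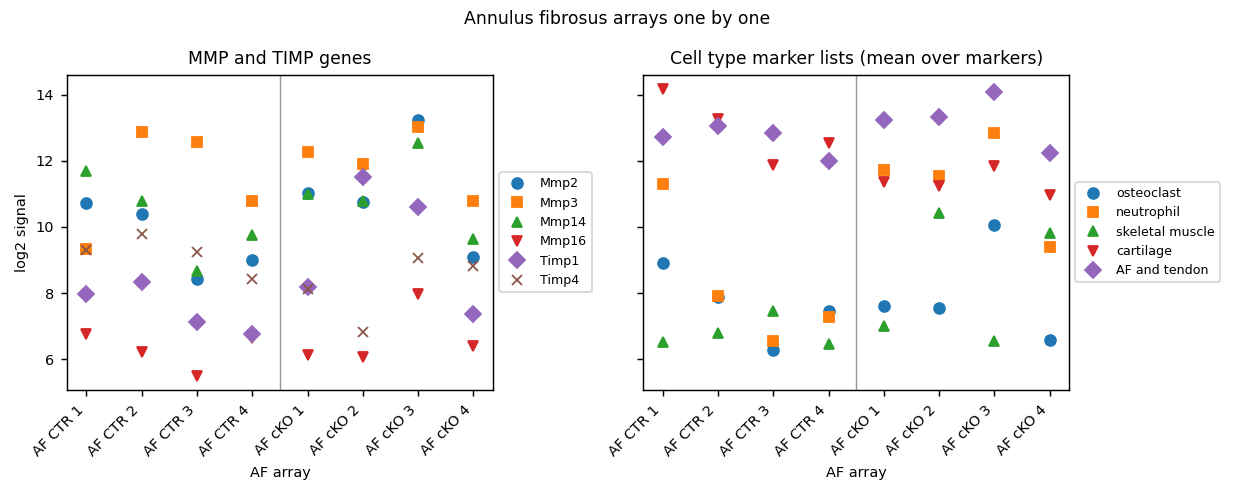
Log2 signal on each of the 8 AF arrays of MMP and TIMP genes (left) and the mean over marker genes of each cell type list (right), with CTR arrays to the left of the line. AF cKO replicate 3 has the highest Mmp2 signal (13.23) and the highest osteoclast (10.06), neutrophil (12.83) and AF and tendon (14.08) means. AF cKO replicate 2 has the highest Timp1 signal (11.51) and skeletal muscle mean (10.41). Timp1 and the skeletal muscle mean are 10.62 and 6.55 in AF cKO replicate 3, and 7.36 and 9.83 in AF cKO replicate 4.

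The tissue labels were checked against marker genes. The AF and tendon list averaged 12.01 to 14.08 on AF arrays and 7.83 to 9.47 on NP arrays, and the NP and notochord list 12.01 to 12.41 on NP arrays and 10.96 to 11.80 on AF arrays. The gap of the second list was the smaller one, and in CTR 6 of its 12 measured genes were called higher in NP and 2 lower. AF arrays also carried more signal of hypertrophic cartilage and osteoblast markers, a list that includes Mmp13, with means of 8.71 to 12.17 against 5.28 to 5.77 in NP and 9 of 10 called lower in NP in each genotype. In cKO discs 14 of 16 skeletal muscle markers and 11 of 12 neutrophil markers were called lower in NP, and in CTR 1 of each. Over all probe sets 12.6% were called lower in NP in cKO. In CTR 10.1% were called lower and 9.96% higher. The part of these cell types in the tissue differences of the MMP and TIMP genes was not tested. Between arrays of a group the correlation over all probe sets was 0.963 to 0.983.

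Enzyme and inhibitor were then set against each other within each array, as a difference of log2 signals that cancels the scaling of an array. Its zero has no meaning, because 2 probe sets differ in brightness, and it is read only across arrays. The mean of the 6 enzymes minus the mean of the 4 inhibitors was -4.72 ± 0.19 (SD, n = 4) in NP CTR, -4.93 ± 0.09 in NP cKO, -3.56 ± 0.29 in AF CTR and -3.34 ± 0.63 in AF cKO. The NP arrays ran from -5.06 to -4.56 and the AF arrays from -4.01 to -2.62, so the tissues did not overlap, and the genotypes did. In NP CTR, Mmp2, Mmp3, Mmp11 and Mmp16 and also Timp1 and Timp4 were below background on all 4 arrays, so the NP values of this difference rest largely on background signals. Both means were higher in AF: the enzymes averaged 6.15 in NP CTR and 8.46 in AF CTR, and the inhibitors 10.86 and 12.02.

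In each pair chosen for this reading the AF mean lay above the NP mean of the same genotype. Other pairs were not computed, and not all would run this way. In CTR, NP minus AF was -3.31 for Timp4, or -2.66 with values raised to background, and -2.17 for Mmp14. Mmp14 minus Timp4 would thus be higher in NP CTR than in AF CTR. Mmp14 minus Timp2, the membrane enzyme and the inhibitor of the proMMP2-activating complex, was -8.91 ± 0.52 in NP CTR, -9.07 ± 0.29 in NP cKO, -7.66 ± 1.58 in AF CTR and -6.82 ± 1.26 in AF cKO. The CTR tissues overlapped, since AF CTR reached -9.51. Mmp3 minus Timp3 was -9.66 ± 0.72 and -8.86 ± 0.97 in NP CTR and NP cKO and -2.05 ± 1.56 and -1.59 ± 1.41 in AF CTR and AF cKO, with no overlap between tissues. Mmp3 minus Timp1 was 1.04 ± 0.63 in NP CTR, 1.02 ± 1.10 in NP cKO, 3.83 ± 1.75 in AF CTR and 2.57 ± 1.62 in AF cKO. Here the tissues overlapped in both genotypes. NP CTR reached 1.68 and AF CTR fell to 1.36, and NP cKO reached 2.04 and AF cKO fell to 0.38. Timp1 too was below background on all 8 NP arrays. Mmp2 minus Timp2 averaged -11.88 in NP CTR, -11.65 in NP cKO, -8.25 in AF CTR and -6.79 in AF cKO, and Mmp2 minus Mmp14 was -2.98 ± 0.83, -2.58 ± 0.67, -0.59 ± 0.34 and 0.03 ± 0.51 in the same order. Mmp2 was below background on all 8 NP arrays, and so were 7 of 8 NP values of Mmp3, so the NP values of these pairs are set by background.

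**Figure D4:**
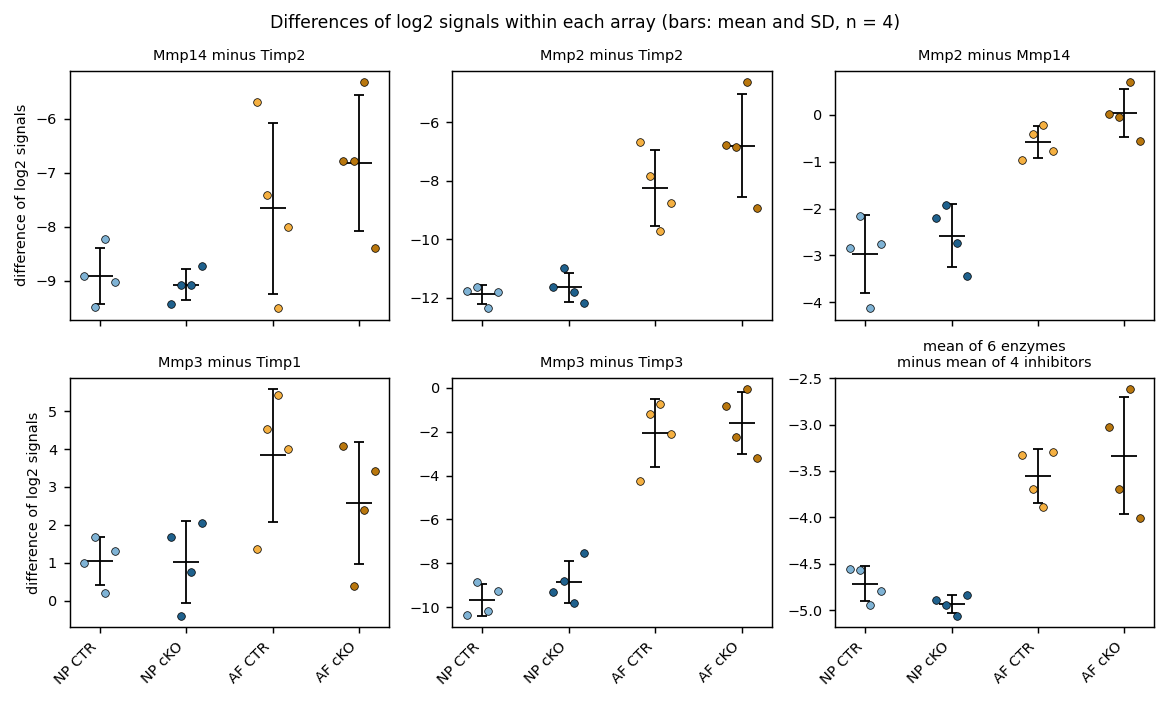
Differences of log2 signals within each array, between enzyme and inhibitor probe sets and, in one panel, between the enzymes Mmp2 and Mmp14. There is one panel per pair or mean and one point per array, with bars for mean and SD of 4 arrays. For the mean of 6 enzymes minus the mean of 4 inhibitors, NP arrays lie from -5.06 to -4.56 and AF arrays from -4.01 to -2.62.

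Of 17 other MMP genes, 15 were measured. In CTR discs 3 were called lower in NP: Mmp9 (gelatinase B; -4.95, SE 1.21), Mmp13 (collagenase-3; -6.56, SE 1.06) and Mmp12 (macrophage elastase; -1.92, SE 0.32). In cKO discs 5 were called lower: Mmp9 (-5.60), Mmp13 (-7.78), Mmp12 (-1.16), Mmp8 (neutrophil collagenase; -3.34) and Mmp21 (-0.63). None was called higher in NP. The lower calls make 3 of 15 in CTR and 5 of 15 in cKO, beside 10.1% and 12.6% lower over all probe sets and 20.1% and 25.9% called in either direction. The median over the 15 was -0.32 in CTR and -0.11 in cKO, beside 0.04 and 0.07 over all probe sets. Mmp9 and Mmp13 moved by more than 1.5-fold with single AF arrays. Without AF CTR replicate 1 the CTR differences were -3.70 and -5.35, and without AF CTR replicate 3 they were -6.34 and -7.56. In NP, Mmp9 signals lay between 3.93 and 5.23, below background on every array, and Mmp13 signals between 5.69 and 6.85, near background. The sizes of the Mmp9 and Mmp13 differences therefore depend on background signals, and no fold is read from them.

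In the annotation 10 MMP genes lie together on chromosome 9 in the order Mmp13, Mmp12, Mmp1b, Mmp3, Mmp1a, Mmp10, Mmp8, Mmp27, Mmp20 and Mmp7, and 9 were measured. Mmp13, Mmp12 and Mmp3 were lower in NP in both genotypes. Mmp8, called in cKO only, differed between AF genotypes by 2.62 (SE 0.65; adjusted p = 0.159). Its AF signals were 9.83, 7.0, 6.16 and 6.48 in CTR and 10.96, 10.44, 10.40 and 8.14 in cKO, so only AF CTR replicate 1 and AF cKO replicate 4 overlapped. It was called without AF CTR replicate 1 (3.44, adjusted p = 0.00287) and without AF cKO replicate 4 (3.24, adjusted p = 0.0244). The neutrophil marker mean was likewise 11.31 in AF CTR replicate 1 and 9.38 in AF cKO replicate 4, the highest of its CTR and the lowest of its cKO arrays. Its part in the Mmp8 difference was not tested.

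Of 14 measured genes of MMP activation and the plasmin system, activators and inhibitors together, 6 were called lower and 1 higher in each genotype. The shares over all probe sets were 10.1% lower and 9.96% higher in CTR and 12.6% and 13.3% in cKO. Pcsk6 (a proprotein convertase; -5.76 in CTR, -5.59 in cKO), Furin (another convertase that activates membrane MMPs; -1.64 and -1.11), Plat (tissue plasminogen activator; -3.09 and -2.88), Serping1 (C1 inhibitor; -2.07 and -2.94) and Reck (a membrane-bound MMP inhibitor; -2.44 and -1.83) were lower in both. The sixth was Plau in CTR (-0.79) and Plaur in cKO (-1.38). Called higher in NP were Plg in CTR (0.58) and A2m in cKO (0.90). With the animal as a fixed block, Plg (adjusted p = 0.0774) and A2m (0.0522) were no longer called, and with the animal as a random block both were called (0.0314 and 0.02).

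A list of 8 ADAM protease genes gave 3 called lower in NP in CTR (Adam12 -1.0, Adam17 -1.28, Adam19 -0.92). In cKO it gave 4, with Adam8 (-1.40) added, beside 10.1% lower in CTR and 12.6% in cKO over all probe sets. Adam17 sheds TNF and other membrane proteins and is inhibited by TIMP3, which ran the opposite way. Among 12 cell surface partners of MMPs and TIMPs, 3 were higher in NP in CTR, namely Bsg (an inducer of MMP expression; 0.71), Itgav (0.81) and Cav1 (1.41), and 3 were lower, Efemp1 (a TIMP3 ligand; -4.54), Sdc1 (-2.90) and Kdr (-2.21). In cKO 1 was higher (Cav1, 1.16) and 4 lower (Efemp1 -3.71, Kdr -2.76, Cd44 -1.94, Cd63 -1.07). Over all probe sets 20.1% were called in CTR and 25.9% in cKO.

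A list of 20 measured genes held cytokines, cytokine receptors and transcription factors linked to MMP expression. In it 8 were lower in NP in each genotype and 0 higher, beside 10.1% lower in CTR and 12.6% in cKO over all probe sets. Tgfb1 was lower by the largest amount (-4.44 in CTR, -3.26 in cKO), and Il1r1, the receptor for IL-1, by -1.95 and -1.67. Il6 (-1.76) and Cebpb (-1.01) were called in CTR alone, Junb (-2.03) and Tnf (-0.58) in cKO alone, and whether those differences themselves differ was not read from these calls. Ets1, Ets2, Fosl1 and Osm were called lower in both genotypes, the cKO call of Fosl1 being lost with quantile normalization (-0.49, adjusted p = 0.0716) and the CTR call of Osm with median centring and array weights. Many of these genes are near background in NP.

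Of 20 matrix substrates, 12 were lower in NP in each genotype and 0 higher, beside the same 10.1% and 12.6%, and the median difference over the 20 was -3.34 in CTR and -2.68 in cKO. Among the fibrillar collagens Col1a2 differed by -9.89 in CTR and -9.41 in cKO, Col1a1 by -8.10 and -7.95 and Col3a1 by -7.25 and -9.21. Single arrays moved some of these by over 1.5-fold: Col3a1 in CTR was -8.21 without AF CTR replicate 4, and Col1a1 in cKO was -7.27 without AF cKO replicate 3 and -8.61 without AF cKO replicate 4. Of the 20, Acan alone was called between genotypes, in AF, at -2.0 (SE 0.34; adjusted p = 0.0218), a call lost without AF CTR replicate 2 or 4 or AF cKO replicate 1 or 3 (adjusted p up to 0.0689), with AF arrays alone (0.175) and with AF CTR replicate 1 and AF cKO replicate 3 both left out (0.0528). No gene of the other pathway lists was called between genotypes in NP or AF. Among the tissue calls of these lists, those of Plau, Plg, Adam12, Osm and Ets1 in CTR and of Mmp21, A2m, Adam12, Junb, Tnf and Fmod in cKO were lost when some single array was left out, with adjusted p of 0.0551 to 0.133 at most. Serping1 in CTR was -2.66 without AF CTR replicate 4, Junb in cKO -1.42 without AF cKO replicate 4, and Pcsk6 and Efemp1 in cKO -6.19 and -4.35 without NP cKO replicate 4.

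The genes whose signal ran most like each member over 16 arrays were named by Pearson's r, a description dominated by the gap between tissues and with all arrays sharing 4 groups. Mmp2 ran closest to Serpinh1 (a collagen chaperone; r = 0.986), Alpl (0.986) and Fap (0.981). Mmp3 ran closest to Fbln1 (0.989), Fzd8 (0.986) and Dkk3 (0.984), and Mmp14 to Sema7a (0.977), Tmem176a (0.97) and Lum (0.964). For the inhibitors the closest genes were Rab31 for Timp1 (0.972), Itih5 for Timp2 (0.963), Ccpg1 for Timp3 (0.952) and Fam174b for Timp4 (0.968). For Mmp16 and Mmp23 they were Itga4 (0.937) and Myoz1 (0.96).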

How the data were processed

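RNA from 16 disc samples was hybridised to 1-colour Affymetrix arrays. The deposited values are log2 signals normalized by the authors with sst-rma, per the labels; the submitters' processing notes name Transcriptome Analysis Console, and no genome build is named there. Without control probe sets, 22206 remained for testing. One mean per group was modelled by limma 3.58.1 (lmFit, eBayes; R 4.3.3), with Benjamini-Hochberg adjustment over all tested probe sets and a threshold of 0.05; the script was tested on simulated data. Each gene had 1 spread shared by the 4 groups, so SE and intervals do not follow the unequal spread of NP and AF. Members and lists were chosen with earlier results of these data known.

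All members are named. Of each other list, genes called in any of the 5 comparisons are named, with Mmp8, Mmp9 and Mmp13 by array after their values were seen, and for each called member the genes of highest Pearson r. Promoter letters are RefSeq's.

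NP and AF with the same code came from 1 animal, so animals pair the tissues. Correlations of paired deviations from the group means ran from -0.293 to 0.348, and calls that changed under this block are given beside the result. CTR and cKO replicate numbers name different animals. The 8 animals are the replicates. Alternatives covered other scalings, dropping dim probe sets, using a single probe set for each gene, moderation, array weights, the labels' thresholds, fewer arrays, blocks and leaving out each array. The number of arrays limits the precision.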

Additional observations from a re-analysis of the deposited data

Results flagged for a closer look

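In groups of 4 arrays, 3 of 64 sets (the members and the within-array differences in each group) had 1 array far from the other 3; the gap to the nearest array passed Dixon's 95% critical value as a share of the group's range. Chance flags about 1 in 20 groups. Mmp3 in NP cKO replicate 4 was 7.91, where the gap was 0.911 of the range, and this array also had the highest AF and tendon marker mean of the NP arrays, 9.47. Mmp16 in NP CTR replicate 4 was 4.83, below the other 3 arrays (0.888 of the range), and all 4 were below background. Timp4 in NP cKO replicate 1 was 6.87 (0.894 of the range), the one NP array above background for this gene.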

How the results depend on the processing

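Members called stayed between 8 and 9 in NP minus AF in CTR and in cKO under the alternatives run, and at 0 in the genotype comparisons except under the labels' thresholds (unadjusted p and 1.75-fold), which called 3 in AF and 1 in the difference of changes. Leaving out 1 array gave 8 to 9 called members in CTR, 9 in cKO and 0 between genotypes. The filter on dim probe sets gave no value for members it removed. Over all probe sets, the AF genotype count went from 22 to 37 with quantile normalization, 774 with the labels' thresholds and 8 with AF arrays alone; the NP count went from 27 to 262 with the labels' thresholds; the count for the difference went from 0 to 1 with quantile normalization and 977 with the labels' thresholds. The dim filter left 2764 calls (of 4462) for NP minus AF in CTR and 3119 (of 5754) in cKO. Leaving out 1 array gave 12 to 142 calls in AF (142 without AF CTR replicate 1, 58 without AF CTR replicate 3, 112 without AF cKO replicate 4 and 12 without AF cKO replicate 1 or 2), 10 to 31 in NP, 0 to 3 for the difference, 3552 to 4562 for NP minus AF in CTR and 4074 to 5939 in cKO. Of 2 settings added after seeing the data, leaving out AF CTR 1 and AF cKO 3 gave 112 calls in AF and 1 for the difference, and leaving out AF cKO 2 and 4 gave 34, 1 and, for NP minus AF in cKO, 3800.

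None of the signs that turned belonged to a called value, and the cause was not tested. They were, with quantile normalization, Timp2 in NP (0.002), Timp3 in AF (-0.028), Mmp3 in the difference (0.019) and Mmp11 in NP minus AF in cKO (-0.019); with median centring, Timp2 in the difference (-0.009); with array weights, Mmp14 (0.004) and Timp2 (0.049) in NP and Mmp3 in the difference (0.12); without AF CTR 1 and AF cKO 3, Mmp3 (-0.42) and Mmp23 (0.012) in AF and Mmp3 in the difference (0.92); without AF cKO 2 and 4, Timp3 in AF (-0.34) and in the difference (0.039). Leaving out 1 array turned the sign of further uncalled values, with ranges of -0.049 to 0.34 for Mmp11 in NP minus AF in CTR and -0.12 to 0.28 in cKO, -0.30 to 0.13 for Mmp11, -0.60 to 0.57 for Mmp3 and -0.054 to 0.22 for Timp2 in the difference, -0.38 to 0.17 for Mmp14, -0.088 to 0.099 for Timp2 and -0.028 to 0.35 for Timp4 in NP, and in AF -0.074 to 0.56 for Mmp16, -0.087 to 0.017 for Mmp23, -0.077 to 1.10 for Mmp3, -1.04 to 1.60 for Mmp9, -0.23 to 0.04 for Timp2 and -0.047 to 0.34 for Timp3. Median centring moved the median of all probe sets in NP minus AF from 0.04 to 0.16 in CTR.

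With the animal as a fixed replicate block, 4175 probe sets were called in CTR and 5580 in cKO, and with it as a random block 4651 and 6028; members called were 9 and 9 in both. With the replicate number as a block the genotype counts were 26 in NP and 20 in AF, and no member was called. These numbers pair no CTR with cKO animals. The arrays give no depth, and in 12 of 40 combinations of gene and group no array was above background.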
